A study of Mus musculus with 4 samples.

Results

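The barcodes described here are the mouse beta cell barcodes with the most RNA from Slc2a2, Ucn3 and Ppp1r1a, 3 genes that are widely used as marks of mature beta cells. A barcode is the tag shared by all RNA captured in 1 droplet, and a UMI is 1 tagged transcript molecule. Beta barcodes held at least 12000 UMIs, at least 20% of them from the insulin genes Ins1 and Ins2, and under 1% from the other islet hormones Gcg, Sst and Ppy. Both libraries were pooled, and the 15% with the highest summed CPM (UMIs of a gene scaled to a fixed total) of the 3 genes were taken. These were 402 of 2674 beta barcodes, themselves part of 3464 barcodes with at least 12000 UMIs. They are called high barcodes below, and the remaining 2272 are called other barcodes.

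Islets came from C57BL/6 mice that were wild type or Malat1-/-, that is, without the long non-coding RNA Malat1. They were isolated with collagenase, cultured in RPMI medium with serum, and treated with TCDD, a dioxin and ligand of the transcription factor AhR, the aryl hydrocarbon receptor. Accutase dispersed them into suspensions of about 20000 cells for 10x Genomics 3' sequencing with version 3 chemistry. The series has 4 samples, 1 for each genotype and treatment. The samples treated with the solvent DMSO were not analysed here, so both libraries carried TCDD and no effect of TCDD was measured. Dose, exposure time, the age of the mice, how many mice gave each library and how Malat1 was removed are not given in the sources used here. The labels name the cells as beta cells, but the suspensions were of whole islets.

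With 1 library for each genotype there was no replicate and no test, and genotype cannot be told apart from library. High barcodes were chosen from the same counts in which their genes are compared, so every ratio below is a description of these libraries. Intervals are 95%, exact, and cover counting error only. The libraries held 81872519 UMIs (wild type) and 134950186 UMIs (Malat1-/-), with 1279 and 2185 barcodes of at least 12000 UMIs, none of whose barcode sequences were shared between the libraries. Malat1 stood at 10831 CPM in wild-type high barcodes and at 0.38 CPM (7 UMIs) in Malat1-/- ones, 28385-fold lower (13774 to 70609).

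Beta cells take up glucose, break it down, and release insulin when the ATP that results closes potassium channels. Mature mouse beta cells carry the glucose transporter Slc2a2 (GLUT2), the peptide Ucn3 (urocortin 3), which is released with insulin and acts on neighbouring delta cells, and transcription factors such as Mafa, Pdx1 and Nkx6-1 that keep the insulin genes active. Ppp1r1a encodes an inhibitor of protein phosphatase 1 that works once protein kinase A has phosphorylated it. In stressed or dedifferentiating beta cells these genes are known to decline.

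Slc2a2 lies on mm10 chromosome 3 (28697903 to 28731359, plus strand), Ucn3 on chromosome 13 (3940688 to 3945349, minus strand) and Ppp1r1a on chromosome 15 (103530279 to 103538003, minus strand). The 250 bases before the annotated start are shown for Slc2a2 and Ucn3, the pair of choosing genes with an entry in the RefSeq promoter table (GRCm38.p6). They are shown because these genes were high in the same barcodes, and homeodomain factors such as Pdx1 and Nkx6-1 bind sites with a TAAT core. Each sequence runs 5' to 3' on the strand of its gene, and capitals mark TAAT or its reverse complement ATTA.
Slc2a2, chr3:28697653-28697902: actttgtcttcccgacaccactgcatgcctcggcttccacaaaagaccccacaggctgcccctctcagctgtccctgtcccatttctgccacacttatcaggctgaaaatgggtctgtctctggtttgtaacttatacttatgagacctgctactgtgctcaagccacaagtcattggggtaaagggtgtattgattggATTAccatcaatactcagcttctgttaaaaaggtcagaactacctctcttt
Ucn3, chr13:3945350-3945599: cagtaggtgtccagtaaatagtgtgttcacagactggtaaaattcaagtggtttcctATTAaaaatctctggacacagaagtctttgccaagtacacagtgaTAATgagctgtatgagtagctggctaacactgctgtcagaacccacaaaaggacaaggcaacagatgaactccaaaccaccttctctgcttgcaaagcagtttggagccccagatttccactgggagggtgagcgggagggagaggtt
The Slc2a2 window held 1 such match, beginning 51 bases before the start, and the Ucn3 window held 2, beginning 193 and 148 bases before it. On both strands, neither window held TGCTGA, part of the site of Maf factors such as Mafa, and CANNTG, the E-box read by factors such as Neurod1, was found 1 time in Slc2a2 and 2 times in Ucn3. Matches are letters in a window and not evidence of binding. Over 27025 RefSeq promoters of the same length, 55.3% held TAAT or ATTA, 15.8% TGCTGA or its reverse complement and 66.0% CANNTG. Among the genes described below as higher in high barcodes of both libraries, the 45 with a promoter entry held these motifs in 42.2%, 20% and 62.2%. Among those lower in both, the 82 with an entry held them in 41.5%, 18.3% and 59.8%.

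High barcodes were far less frequent in the wild-type library. It gave 29 of its 898 beta barcodes (3.23%, exact binomial interval 2.17 to 4.61%), and the Malat1-/- library gave 373 of 1776 (21%, 19.1 to 23.0%). The summed level of the 3 genes, the value that chose the barcodes, was shifted as a whole between the libraries. Among high barcodes its median was 667 CPM in the wild-type library and 700 CPM in Malat1-/-, and among other barcodes 152 and 284 CPM. The score was continuous at its limit, with the lowest high barcode at 573.434 CPM and the highest other barcode at 573.342 CPM. Within 10% of the limit lay 98 high barcodes above it and 113 other barcodes below it, 17 of the latter from wild type. As a class taken from a score per barcode, they are a range of that score.

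**Figure D1:**
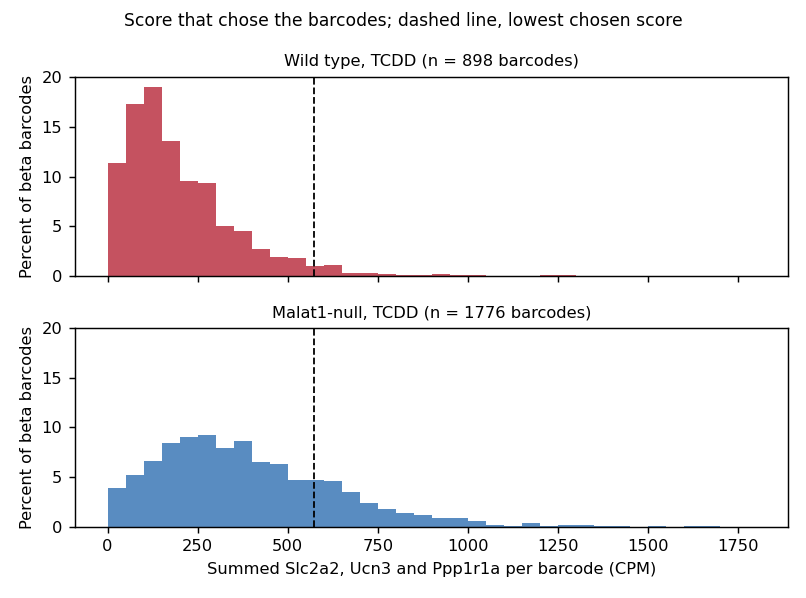
Summed CPM of Slc2a2, Ucn3 and Ppp1r1a per beta barcode (x axis) against the percent of that library's beta barcodes (y axis) in wild type (898 barcodes) and Malat1-/- (1776 barcodes). The dashed line is the lowest chosen score, which 29 wild-type and 373 Malat1-/- barcodes reached, and neither histogram has a gap there.

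Each of the 3 choosing genes was high in these barcodes in both libraries, and none of them alone made the group. Slc2a2 stood at 179 CPM in high and 32.5 CPM in other barcodes of wild type, and in Malat1-/- at 229 and 71.1 CPM. Ucn3 stood at 248 and 74.0 CPM in the wild-type library and at 249 and 110 CPM in Malat1-/-. Ppp1r1a stood at 221 and 63.3 CPM in the wild-type library and at 340 and 144 CPM in Malat1-/-. These are the values that chose the barcodes. UMIs of all 3 genes were present in 29 of 29 wild-type and 368 of 373 Malat1-/- high barcodes, against 506 of 869 and 1005 of 1403 other barcodes. The largest share of the score came from Ucn3 in 13, Ppp1r1a in 10 and Slc2a2 in 6 wild-type high barcodes. In Malat1-/- it came from Ppp1r1a in 197, Ucn3 in 81 and Slc2a2 in 79, with 16 tied.

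When barcodes were chosen by only 2 of the genes, the gene left out was still higher in the chosen barcodes in each library. Slc2a2 then stood at 105 against 35.1 CPM in the wild-type library, a ratio of 3.00 (2.59 to 3.46), and at 176 against 85.3 CPM in Malat1-/-, a ratio of 2.07 (1.98 to 2.16). Ucn3 had ratios of 2.19 (1.94 to 2.46) and 1.65 (1.59 to 1.72), and Ppp1r1a of 2.15 (1.93 to 2.39) and 1.73 (1.68 to 1.79). All are smaller than the ratios of the full choice, which were 5.50 and 3.22 for Slc2a2, 3.35 and 2.26 for Ucn3, and 3.49 and 2.37 for Ppp1r1a. With the UMIs of each barcode divided at random into 2 sets, 1 for choosing and 1 for measuring, the ratio of Slc2a2 was 4.30 in wild type and 2.67 in Malat1-/-.

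High barcodes were not deeper than other barcodes. Median totals were 54392 UMIs in high and 62896 in other barcodes of wild type, and 49142 and 48958 in Malat1-/-. Median numbers of genes were 5928 and 6081 in wild type, and 5077 and 5165 in Malat1-/-. After every barcode was thinned to 12000 UMIs, a Slc2a2 UMI was found in 89.7% of wild-type high and 28.5% of other barcodes, and in 83.6% and 45.0% of Malat1-/- ones; unthinned, the shares were 100% and 68.6%, and 98.9% and 77.9%. Slc2a2 chose the barcodes on their full counts, so the choice fixes this gap and thinning does not undo it. B cell barcodes, taken as those with at least 5 UMIs of Cd79a and Cd79b and under 5% insulin, should lack Slc2a2. Thinned in the same way, 0 of 56 in wild type (0 to 6.38%) and 1 of 79 in Malat1-/- (1.27%, 0.0320 to 6.85%) had a UMI. Their unthinned median depths were 26127.5 and 21852 UMIs.

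Insulin itself was not higher in high barcodes. Their median share of UMIs from Ins1 and Ins2 was 42.5% in wild type, against 51.1% in other barcodes, and 58.9% against 58.4% in Malat1-/-. The log2 ratios of Ins2 were -0.35 and 0.03, those of Ins1 -0.27 and -0.02, and those of Iapp, the amyloid peptide released with insulin, 0.13 and 0.03, in wild type and Malat1-/- in that order. The score was taken per total UMIs, insulin included, so the choice can itself favour barcodes with a low insulin share. Its part in these insulin values was not tested. The share of mitochondrially encoded UMIs had medians of 1.26% against 1.19% in wild type and 1.33% against 1.13% in Malat1-/-.

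Beyond the choosing genes, 9 of 22 measured genes of beta cell maturity and identity stood higher in high barcodes of both libraries, among them Mafa, Pdx1, Nkx6-1, G6pc2 and Glp1r, while Neurod1, Insm1, Pax6 and Nkx2-2 were not counted. For each gene, UMIs were summed over high and over other barcodes of each library, then converted to CPM using TMM factors, which correct for a few genes taking a large share of the RNA. A gene was counted as higher or lower if it had at least 20 CPM in 1 of the 4 sums, at least 50 UMIs over the 2 sums of each library, and in each library a level at least 25% higher (or at least 20% lower) in high barcodes with an interval of the ratio beyond 1. Of 4320 genes with enough counts, not including the 3 choosing genes, 61 (1.41%) were higher and 102 (2.36%) lower in both libraries. Of the 61, 17 reached 20 CPM only in high barcodes, and of the 102, 26 did so only in other barcodes, so these could pass the minimum only by differing in the direction counted. Within wild type 344 (7.96%) were higher and 403 (9.33%) lower, and within Malat1-/- 97 (2.25%) and 186 (4.31%). With plain scaling to the total count in place of TMM, 73 were higher and 72 lower, so that higher genes made up 50.3% of those counted in place of 37.4%; the median log2 ratio of all genes in wild type was then 0.15. Over all 4320 genes the median log2 ratio with TMM was 0.0061 in wild type and -0.012 in Malat1-/-, and 2711 (62.8%) had the same sign in both. Of the 97 genes higher in Malat1-/- high barcodes, 85 had the same sign in wild type and 61 were counted there too.

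**Figure D2:**
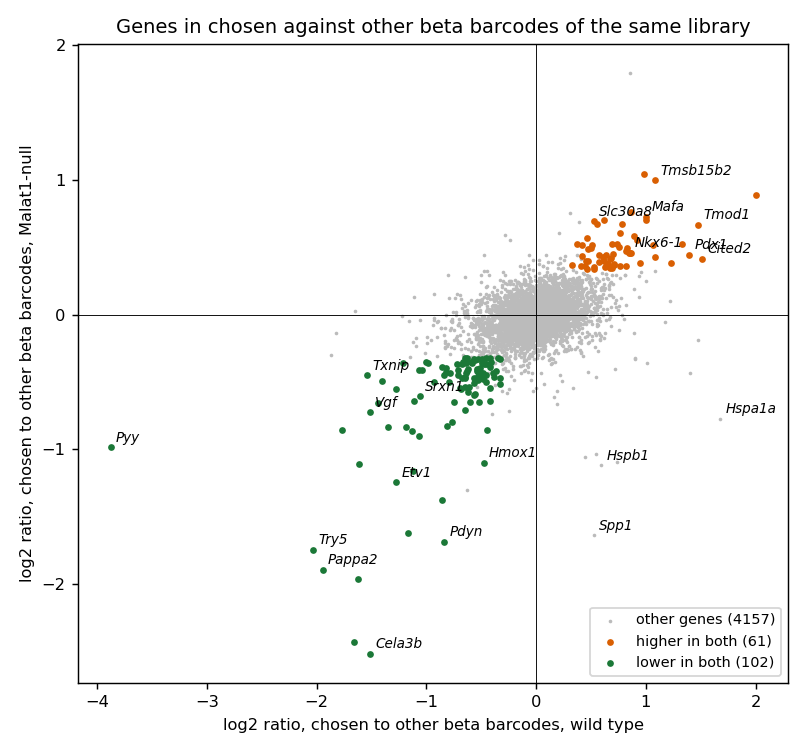
Log2 ratio of high to other beta barcodes for each gene in wild type (x axis) and Malat1-/- (y axis); orange points are the 61 genes higher and green points the 102 lower in both libraries, and gray points the remaining genes, without the 3 choosing genes. Mafa and Tmsb15b2 stand at the upper right, Pappa2 at the lower left, and Hspa1a and Spp1 are positive in wild type and negative in Malat1-/-.

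Among 22 measured genes of the beta maturity and identity list, 9 were higher in both libraries and none was lower, at a background of 1.41% over all genes. The list median was 0.40 in wild type and 0.21 in Malat1-/- on the log2 scale. These genes and the choosing genes are known to act together, so the list is a check of the label and not independent of it. Mafa, the factor that switches on insulin transcription in mature cells (mm10 chromosome 15, 75745490 to 75748228, minus strand), stood at 286 CPM in high and 143 CPM in other wild-type barcodes, and at 426 and 258 CPM in Malat1-/-. Its ratios were 2.01 (1.84 to 2.19) and 1.66 (1.61 to 1.70). Mafa exceeded the median of the other barcodes in 21 of 29 wild-type and 81.8% of Malat1-/- high barcodes, so the ranges of single barcodes overlapped.

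Pdx1, the factor that marks pancreas and beta cell fate (chromosome 5, 147269959 to 147275848, plus strand), stood at 96.9 and 36.9 CPM in the wild-type library and at 65.4 and 48.1 CPM in Malat1-/-, for high and other barcodes. The ratio was 2.62 (2.24 to 3.05) in wild type and 1.36 (1.27 to 1.45) in Malat1-/-. A single barcode held 24.5% of the wild-type UMIs of Pdx1 in high barcodes, and without it the ratio was 2.01 (1.68 to 2.39). Nkx6-1, a factor that holds beta cell identity, stood at 184 and 102 CPM in the wild-type library and at 144 and 105 CPM in Malat1-/-, ratios of 1.80 (1.61 to 2.00) and 1.37 (1.31 to 1.44). Thus all 3 factors were higher in both libraries, by more in wild type than in Malat1-/-. High barcodes were 3.23% of beta barcodes in wild type and 21% in Malat1-/-, so the 2 ratios compare unlike slices. The choosing genes also had larger ratios in wild type (Slc2a2 5.50 and 3.22), while Glp1r and Slc30a8, below, had larger ones in Malat1-/-. The difference between the libraries was not tested.

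G6pc2, Glp1r and Prlr were also among the 9. G6pc2, the islet glucose-6-phosphatase that opposes glucokinase, stood at 513 and 284 CPM in the wild-type library (ratio 1.81, 1.69 to 1.93) and at 401 and 292 CPM in Malat1-/- (1.37, 1.34 to 1.41). Glp1r, the receptor of the incretin GLP-1, stood at 349 and 261 CPM in the wild-type library (1.34, 1.24 to 1.45) and at 408 and 285 CPM in Malat1-/- (1.43, 1.39 to 1.47). For Prlr, the prolactin receptor, the levels were 222 and 126 CPM in the wild-type library (1.76, 1.59 to 1.94) and 236 and 170 CPM in Malat1-/- (1.39, 1.34 to 1.44). For each of these receptors and enzymes, high barcodes stood above the other barcodes of their own library.

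The last 3 of the 9 were Slc30a8, Sytl4 and Ero1lb. Slc30a8, the zinc transporter that loads granules, stood at 178 and 124 CPM in the wild-type library (1.44, 1.29 to 1.60) and at 296 and 183 CPM in Malat1-/- (1.62, 1.57 to 1.67). Sytl4, or granuphilin, which docks granules at the membrane, stood at 108 and 62.9 CPM in the wild-type library (1.71, 1.48 to 1.97) and at 160 and 100 CPM in Malat1-/- (1.59, 1.52 to 1.66). Ero1lb, an oxidase that helps proinsulin fold, had ratios of 1.54 (1.42 to 1.67) and 1.28 (1.24 to 1.31). Other identity factors did not reach the size limit in both libraries: log2 ratios were 0.53 and 0.18 for Neurod1, 0.46 and 0.02 for Insm1, 0.21 and 0.19 for Pax6, and 0.38 and 0.26 for Nkx2-2. The potassium channel subunit genes Abcc8 (-0.18 and 0.00) and Kcnj11 (0.07 and 0.06) were near 0.

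**Figure D3:**
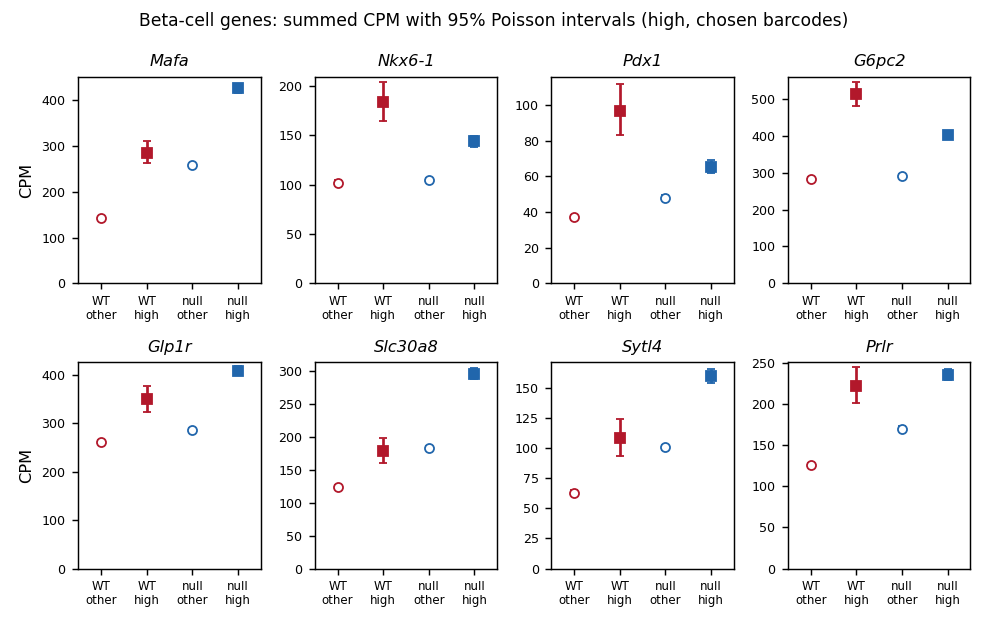
Summed CPM (y axis, from 0) of 8 beta cell genes in other barcodes (open circles) and high barcodes (filled squares) of the wild-type (red) and Malat1-/- (blue) libraries; bars are 95% Poisson intervals of the summed counts. Each gene stands higher in the high barcodes of its own library, for example Mafa at 286 against 143 CPM in the wild-type library.

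The other lists of beta cell function held few counted genes, at a background of 1.41% higher and 2.36% lower over all genes. For secretion, 1 of 15 measured exocytosis genes was higher in both libraries (Sytl4), with list medians of 0.07 and 0.07. For excitability, 1 of 12 channel genes was higher (Trpm5, a cation channel opened by calcium, ratios 1.60 and 1.34), with medians of -0.07 and 0.12. In the list of cAMP signalling 1 of 12 was higher (Glp1r) and 1 lower (Crem, a cAMP-responsive factor, log2 ratios -0.52 and -0.65). Among 4 genes linked to beta cell subsets 1 was higher, Hadh, an enzyme of fatty acid oxidation that restrains insulin release, with ratios of 1.42 and 1.43.

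None of 13 measured granin and prohormone processing genes was higher in both libraries and 2 were lower, at backgrounds of 1.41% and 2.36%. Vgf, a granin-like precursor, stood at 8.42 and 24.9 CPM in the wild-type library and at 19.3 and 32.0 CPM in Malat1-/-, a level 2.95-fold (1.81 to 5.18) and 1.66-fold (1.48 to 1.86) lower. Vgf reached 20 CPM only in other barcodes, so it could pass the minimum only by being lower. Pam, the enzyme that amidates peptides, was 1.40-fold and 1.39-fold lower. Chga had log2 ratios of 0.25 and 0.26 without reaching the limit, and the convertase Pcsk2 0.03 and 0.02. For glucose-responsive genes, 1 of 6 measured was counted, lower: Txnip, which is induced by glucose through ChREBP, stood at 39.5 and 116 CPM in the wild-type library and at 43.2 and 59.0 CPM in Malat1-/-, 2.93-fold (2.33 to 3.73) and 1.37-fold (1.27 to 1.48) lower.

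In the oxidative stress response, 5 of 18 measured targets of Nrf2 and antioxidant genes were lower in high barcodes of both libraries, at a background of 2.36%. None was higher and 13 were counted in neither direction, with medians of -0.35 and -0.19. Srxn1, sulfiredoxin, stood at 20.0 and 42.3 CPM in the wild-type library, 2.12-fold (1.54 to 3.00) lower, and at 35.1 and 53.5 CPM in Malat1-/-, 1.52-fold (1.40 to 1.66) lower. Txnrd1, thioredoxin reductase, stood at 101 and 155 CPM in the wild-type library and at 108 and 161 CPM in Malat1-/-, 1.55-fold (1.34 to 1.79) and 1.49-fold (1.42 to 1.56) lower. Both genes are standard Nrf2 targets, and both were lower in each library.

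The other 3 were Sqstm1, an autophagy receptor, Gclc, which makes the first step to glutathione, and Hmox1, which breaks down haem. Sqstm1 stood at 185 and 263 CPM in the wild-type library and at 257 and 352 CPM in Malat1-/-. Gclc was 1.67-fold (1.13 to 2.60) and 1.33-fold (1.19 to 1.49) lower. Hmox1 stood at 33.2 and 46.6 CPM in the wild-type library, 1.40-fold (1.09 to 1.83) lower, and at 22.1 and 47.5 CPM in Malat1-/-, 2.14-fold (1.93 to 2.38) lower. Of the wild-type Hmox1 UMIs in high barcodes 66.7% came from 1 barcode, and without it the wild-type ratio was 0.246 (0.152 to 0.377).

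Of 9 measured p53 targets and apoptosis genes 4 were lower and none higher in both libraries, with medians of -0.20 and -0.33. The background over all genes was 2.36% lower and 1.41% higher. Cdkn1a, the cell cycle inhibitor p21, stood at 58.4 and 87.1 CPM in the wild-type library and at 65.0 and 92.4 CPM in Malat1-/-, 1.49-fold (1.23 to 1.82) and 1.42-fold (1.34 to 1.51) lower. Ccng1, a cyclin induced by p53, was 1.48-fold and 1.5-fold lower, Trp53inp1 1.49-fold and 1.26-fold, and Bax, which permeabilises mitochondria, was lower with log2 ratios of -0.42 and -0.33. Of 23 measured genes of endoplasmic reticulum (ER) stress and folding 3 were lower, at the same background of 2.36%, with medians of 0.02 and -0.13. These were Trib3, a pseudokinase induced by Ddit3 (1.65-fold and 1.46-fold lower), Ppp1r15a, which restarts translation (1.45-fold and 1.40-fold), and Creld2 (1.37-fold and 1.81-fold). Most chaperones of the list were not counted in either direction in both libraries.

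**Figure D4:**
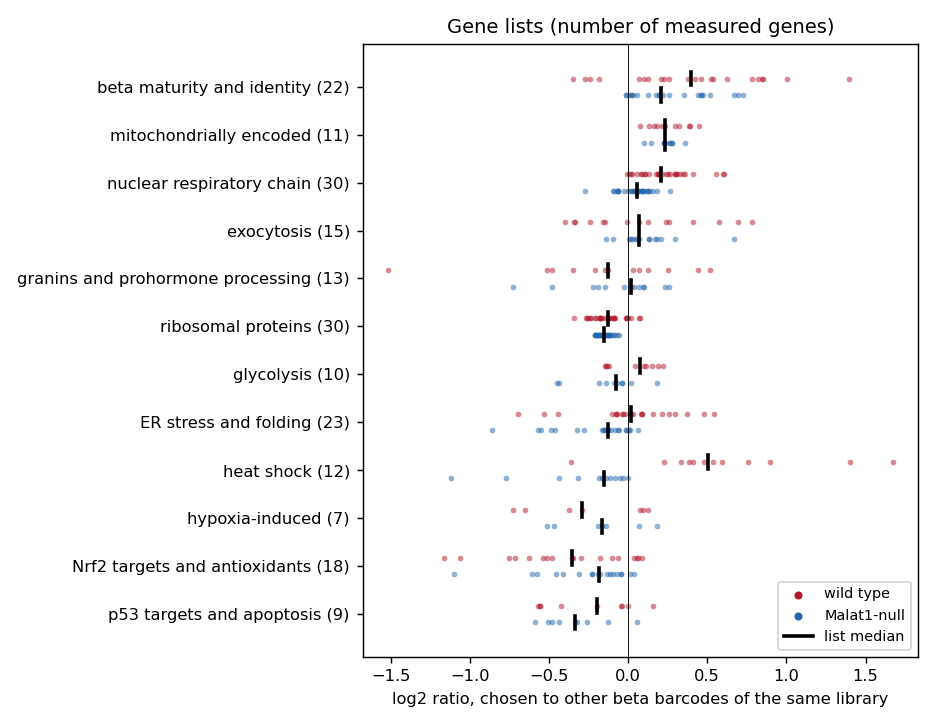
Log2 ratio of high to other barcodes (x axis) for each measured gene of 12 lists (y axis, number of measured genes in parentheses) in wild type (red) and Malat1-/- (blue), with the list median as a black bar. The beta maturity and identity list has medians of 0.40 and 0.21, the Nrf2 list of -0.35 and -0.19, and the heat shock list differs in sign between the libraries.

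Several lists had no gene or a single gene counted in both libraries, at a background of 1.41% higher and 2.36% lower over all genes. Among 11 measured mitochondrially encoded genes, mt-Nd3 was counted (ratios 1.36 and 1.28), while the list medians were 0.23 in both libraries. None of 30 nuclear respiratory chain genes was counted (medians 0.21 and 0.06), none of 30 ribosomal protein genes (-0.12 and -0.15), none of 10 glycolysis, 10 immediate-early, 10 cholesterol synthesis and 3 proliferation genes. In the list of NF-kB and cytokine genes 1 of 9 was lower (Nfkbiz, 1.53-fold and 1.57-fold), in that of hypoxia 1 of 7 (Ero1l, 1.58-fold and 1.38-fold), in that of nuclear speckles and long non-coding RNAs 1 of 11 (Snhg11), and in that of immature or dedifferentiated beta cells 1 of 3 (Serpina7, 1.83-fold and 2.61-fold). Without the 1 barcode that held 55.1% of its wild-type UMIs in high barcodes, the Serpina7 ratio was 0.253. MHC class I genes were divided, with B2m higher (1.38 and 1.32) and the immunoproteasome subunits Psmb8 (1.49-fold and 1.38-fold) and Psmb9 (1.80-fold and 1.35-fold) lower. Without the largest single barcode, the wild-type ratios were 1.20 (0.966 to 1.47) for B2m and 1.16 (0.990 to 1.34) for mt-Nd3.

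AhR targets could hardly be read in these barcodes, although both libraries carried TCDD. Only 3 of 11 listed genes had enough counts, and none of the 3 was counted in either direction. Cyp1a1, the classic target, had 0 UMIs in wild-type high barcodes and 1 UMI in Malat1-/- ones, against 125 and 54 UMIs in other barcodes (2.1 and 0.75 CPM). High and other barcodes held 1656364 and 57294379 UMIs of all genes in wild type, and 20037663 and 78679139 in Malat1-/-. The UMI counts of Cyp1a1 therefore cannot be compared directly. Cyp1b1, Cyp1a2, Ahrr and Aldh3a1 had no UMI in high barcodes of either library. Cyp1a1 stands on both the AhR and the endothelial marker list.

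The 12 genes furthest above the other barcodes, ranked by the smaller of the 2 libraries' ratios, were led by Tmsb15b2, a thymosin that binds actin monomers. Of these 12, T2, Plut, Gad1 and Tnr reached 20 CPM only in high barcodes. Tmsb15b2 stood at 65.3 and 30.9 CPM in the wild-type library (ratio 2.12, 1.75 to 2.54) and at 222 and 111 CPM in Malat1-/- (2.00, 1.92 to 2.07). Thymosin genes have close copies, so its reads may be shared with them. Tmod1, which caps actin filaments, stood at 39.5 and 14.3 CPM in the wild-type library (2.77, 2.16 to 3.51) and at 31.8 and 20.0 CPM in Malat1-/- (1.59, 1.44 to 1.75). Both act on the actin cytoskeleton, and both were higher in each library.

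The rest of these 12 have diverse roles. Gpsm1, a modulator of G proteins, had ratios of 1.98 (1.52 to 2.55) and 1.63 (1.5 to 1.77), and Cib3, a calcium-binding protein, of 1.81 (1.33 to 2.40) and 1.70 (1.55 to 1.87). Slc7a2, a transporter of arginine and lysine, had 1.85 (1.5 to 2.25) and 1.5 (1.38 to 1.63). It is also on the alpha cell marker list, where it was the only gene counted as higher in both libraries. Gad1, which makes the transmitter GABA, had 1.51 (1.1 to 2.04) and 1.63 (1.47 to 1.80). Dnajc24, T2 and the matrix gene Tnr had wild-type ratios of 1.69, 1.94 and 1.45 and Malat1-/- ratios of 1.52, 2.06 and 1.59. Mafa and Sytl4, above, complete the list with Plut. Without the barcode with the most UMIs of each (17.8% of those of Gad1 and 16.3% of those of Tnr in high barcodes), the wild-type intervals of Gad1 (0.898 to 1.78) and Tnr (0.872 to 1.75) reached below 1.

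Plut, a long non-coding RNA antisense to Pdx1 (chromosome 5, 147228596 to 147271521, minus strand, overlapping the start of Pdx1), stood at 13.7 and 3.47 CPM in the wild-type library and at 20.3 and 11 CPM in Malat1-/-. Its ratios were 3.95 (2.52 to 5.95) and 1.85 (1.63 to 2.1). A single barcode held 73.1% of its wild-type UMIs in high barcodes, and without it the wild-type ratio was 1.08 (0.429 to 2.26). Whether the counting used strand is not given in the sources used here, so reads of Plut and Pdx1 may not be separated where they overlap.

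Pappa2, a protease that frees insulin-like growth factors from their binding proteins (chromosome 1, 158711727 to 158980490, minus strand), led the lower genes. Of the 12 lowest, Pyy, Gsdma and Ctrb1 reached 20 CPM in high barcodes and the other 9 only in other barcodes. Pappa2 stood at 11.6 and 45.6 CPM in the wild-type library, 3.94-fold (2.59 to 6.29) lower, and at 7.85 and 29.3 CPM in Malat1-/-, 3.73-fold (3.15 to 4.45) lower. Only 4 of 29 wild-type and 15.8% of Malat1-/- high barcodes exceeded the median of the other barcodes. Etv1, a transcription factor of the ETS family, stood at 14.2 and 35.0 CPM in the wild-type library and at 9.92 and 23.6 CPM in Malat1-/-, 2.47-fold (1.69 to 3.75) and 2.38-fold (2.04 to 2.79) lower. Gsdma, of the pore-forming gasdermins, stood at 52.6 and 111 CPM and at 51.8 and 96.8 CPM, 2.11-fold (1.73 to 2.60) and 1.87-fold (1.74 to 2.00) lower. These genes were lower by nearly the same factor in the 2 libraries. Rasgrf2, an activator of Ras, was 2.22-fold and 2.25-fold lower, and the small non-coding RNA Bc1 2.25-fold and 1.83-fold lower. In each of these last genes 1 barcode held over 50% of the wild-type UMIs in high barcodes (51.7% and 52.9%), and without it the wild-type ratios were 0.226 for Rasgrf2 and 0.219 for Bc1.

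Digestive enzyme genes filled 6 of the 12 lowest places, and they belong to another cell type. These were Try5 and Try4 (trypsinogens), Cpa1 (carboxypeptidase), Cela1 and Cela3b (elastases) and Ctrb1 (chymotrypsinogen), all products of acinar cells. The acinar marker list has 10 genes, of which 5 of those 6 and Prss2, another trypsinogen (3.46-fold and 1.82-fold lower), were measured. All of these measured genes were lower in high barcodes of both libraries, at a background of 2.36%. None of the 10 listed genes was at 0 UMIs in high barcodes. The summed level of the list was 116 against 340 CPM in the wild-type library and 32.4 against 112 CPM in Malat1-/-. By 5 equal groups of barcodes in order of score, Ctrb1 stood at 5.13, 8.32, 83.1, 11.8 and 8.64 CPM in Malat1-/-, so the middle group carried most of it, and in wild type it was highest in the second group (191 CPM). Leaving out the 5% of barcodes with the most UMIs turned the Malat1-/- log2 ratios of Ctrb1 to 0.12 and of Try4 to 0.79. Trypsinogen reads can be shared among copies. Doublets were not called, and their part in these values was not tested.

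Pyy and other islet hormones also need this caution. Pyy, peptide YY, stood at 6.84 and 104 CPM in the wild-type library, 15.3-fold (8.91 to 28.7) lower, and at 178 and 351 CPM in Malat1-/-, 1.98-fold (1.91 to 2.05) lower. It exceeded the median of the other barcodes in 10 of 29 wild-type and 50.7% of Malat1-/- high barcodes. The lower Malat1-/- sum therefore does not describe a typical high barcode. Pyy is a marker of PP cells, whose 5 listed genes summed to 81.6 against 150 CPM in the wild-type library and 261 against 456 CPM in Malat1-/-, with Vsig1 at 0. Ppy, the defining hormone of those cells and one limited by the choice of beta barcodes, went the other way in wild type (log2 ratio 1.01) and was -0.36 in Malat1-/-.

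Markers of further cell types were low or mixed. Ductal genes summed to 1130 against 937 CPM in the wild-type library and 281 against 413 CPM in Malat1-/-, of which Spp1 made up most in wild type, Sox9 was at 0, and Krt8 was lower in both libraries (1.38-fold and 1.42-fold). Alpha cell genes summed to 440 against 329 CPM and 380 against 389 CPM, with Irx1 at 0, and delta cell genes to 6.84 against 5.59 CPM and 106 against 94.7 CPM, with Lepr at 0. Macrophage genes summed to 25.3 against 31.5 CPM in the wild-type library and 54.3 against 41.4 CPM in Malat1-/-. No endothelial, B, T or NK, or mesenchymal marker had enough counts for a ratio. Cdh5 and Kdr, Ms4a1, Cd3e, Cd8a and Cd4, and Col1a1, Col3a1, Pdgfrb and Dcn had no UMI in high barcodes. The part of these markers in the gene ratios was not tested.

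Most of the 12 highest genes followed the score along its range. They were picked for being high in the barcodes with the highest scores. A high level in the last group was therefore set by that choice in Malat1-/- and in part in wild type. With the beta barcodes of each library in 5 equal groups by score (179 or 180 barcodes each in wild type, 355 or 356 in Malat1-/-; CPM of the total count), Mafa stood at 66.5, 82.1, 138, 198 and 301 CPM from lowest to highest in wild type. In Malat1-/- the same groups stood at 137, 192, 274, 330 and 392 CPM. Tmsb15b2 went from 13.8 to 70.7 CPM and from 51.5 to 208 CPM, Slc30a8 from 88.5 to 177 CPM and from 108 to 274 CPM, and Glp1r from 172 to 401 CPM and from 175 to 378 CPM. Each of these 4 genes increased at every step in both libraries. Of the 12 highest genes, all 12 increased at every step in Malat1-/- and 8 in wild type, where Cib3 (25.8 then 22.5 CPM in the last groups), Gpsm1, Gad1 and Dnajc24 each had a step down.

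Of the 12 lowest genes, 5 declined at every step in Malat1-/- and 3 of these (Pappa2, Rasgrf2 and Gsdma) also in wild type. The 6 digestive enzyme genes ended above their lowest-score group in both libraries, and Pyy went from 85.4 to 335 CPM before it came down to 7.24 CPM in wild type. Pappa2 stood at 62.2, 58.0, 43.4, 34.9 and 30.0 CPM in the wild-type library and at 49.7, 25.6, 20.9, 14 and 7.14 CPM in Malat1-/-. Srxn1 went from 58.3 to 27.3 CPM and from 66.5 to 31.5 CPM, and Sqstm1 from 322 to 215 CPM and from 405 to 232 CPM. Hmox1 went from 82.5 to 26.2 CPM and from 68.4 to 20.1 CPM, and Cdkn1a from 126 to 72.9 CPM and from 109 to 58.4 CPM. Pappa2 and Sqstm1 fell at every step in both libraries, while Srxn1, Hmox1 and Cdkn1a did so in Malat1-/- and had 1 step up in wild type. The genes named here were picked for being low in the barcodes with the highest scores. Such gradients also share the score and the depth of the barcodes and are given as a description.

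**Figure D5:**
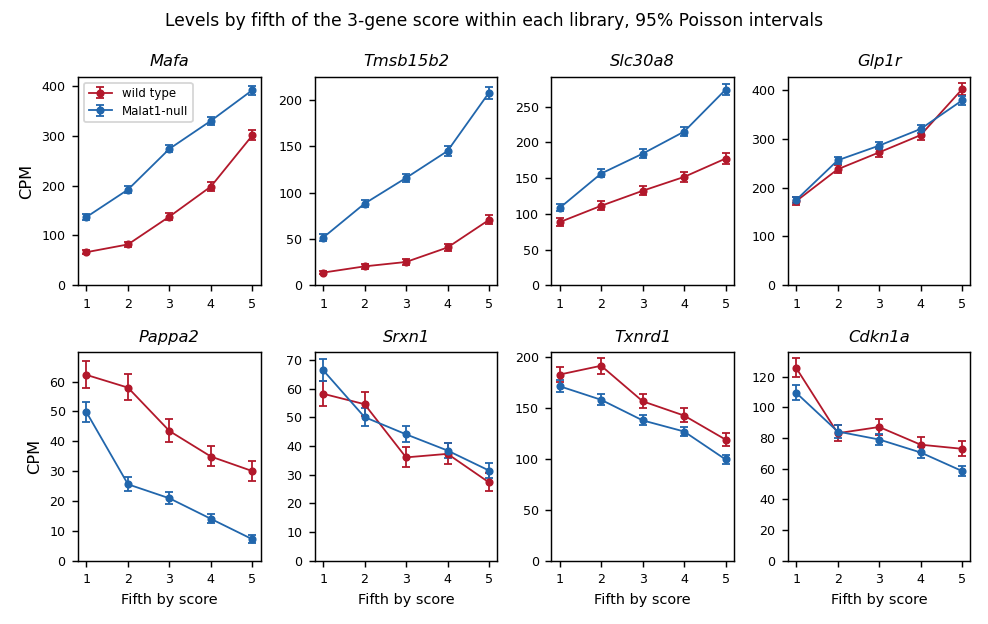
CPM (y axis, from 0) of 4 genes higher and 4 genes lower in high barcodes, over 5 equal groups of beta barcodes by score (x axis, 1 lowest) in wild type (red) and Malat1-/- (blue); bars are 95% Poisson intervals. Mafa goes from 66.5 to 301 CPM and Pappa2 from 62.2 to 30.0 CPM in the wild-type library.

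Within the Malat1-/- high barcodes, which gene led the score made some difference. Tmsb15b2 stood at 261 CPM in the 79 led by Slc2a2, 143 CPM in the 81 led by Ucn3 and 201 CPM in the 197 led by Ppp1r1a. Slc30a8 stood at 316, 248 and 264 CPM in the same order, and Mafa at 374, 346 and 407 CPM. Pappa2 was low in all 3 sets, at 6.44, 6.30 and 7.79 CPM. The median totals of these sets were 44493, 49847 and 49396 UMIs.

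High barcodes overlapped with beta barcodes marked by other gene sets, which were taken in the same way as the top 15% of both libraries. Barcodes high for Pdyn, Serpina7 and Bnip3 were 13.8% of high and 30.4% of other barcodes in wild type (4 of 29, interval 3.89 to 31.7%, and 264 of 869) and 1.88% and 9.05% in Malat1-/-. Those high for the metallothioneins Mt1 and Mt2 were 41.4% and 31.2% in wild type but 3.22% and 7.63% in Malat1-/-. For the immediate-early genes Fos, Fosb and Junb the shares were 27.6% and 22.4%, and 11% and 11.3%. Those high for Glul and Slc40a1 were 41.4% and 32.5% in wild type, and 3.49% and 6.77% in Malat1-/-. Barcodes high for Gem, Nfkbia and Cebpd were 10.3% and 10.6%, and 12.6% and 18.5%. The share high for Hspa1a, Hspa1b and Dnajb1 was 24.1% and 17.6%, and 15.0% and 13.3%. In wild type the interval for high barcodes held the share of the other barcodes in all 6 sets. In Malat1-/- it lay below that share for the Pdyn, metallothionein, Glul and Gem sets and held it for the Fos and Hspa1a sets. Barcodes of 1 library are not replicates, and 29 against 373 high barcodes make the wild-type intervals much wider. Which sets lay outside the interval therefore cannot be compared between the libraries, and no difference was tested.

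A group of 12 genes (0.278%) was counted in opposite directions in the 2 libraries, and heat shock genes were among the first 6 by size. Hspa1a, an inducible chaperone, stood at 208 and 65.2 CPM in the wild-type library but at 5.01 and 8.61 CPM in Malat1-/-. A single barcode held 48.4% of its UMIs in wild-type high barcodes, and the ratio was 3.19 with and 1.67 without it. In Malat1-/- high barcodes 1 barcode held 78.3% of its UMIs, and the ratio was 0.583 with and 0.127 without it. Hspb1, a small heat shock protein, stood at 93.7 and 62.4 CPM in the wild-type library and at 17.3 and 37.6 CPM in Malat1-/-. Of 12 measured heat shock genes 10 were higher in wild type, at a background of 7.96%, and 4 lower in Malat1-/-, at a background of 4.31%, with medians of 0.51 and -0.15. For Hspa1b 1 barcode held 65.7% of the UMIs in wild-type high barcodes, and the ratio was 1.86 with and 0.648 (0.505 to 0.82) without it. For Hspb1 the wild-type ratio was 1.17 (0.983 to 1.39) without its largest barcode. Of the 29 wild-type high barcodes, 6 exceeded the median of the other barcodes for Hspa1a, 6 for Hspa1b and 13 for Hspb1. Spp1, Crybb3, Tnfrsf12a and Hspa5, an ER chaperone, were the other genes of the first 6 by size. Hspa1a and Hspa1b are near-identical copies whose reads can be divided between them. The difference between the libraries was not tested.

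Genotypes were also compared within high barcodes, for genes other than the choosing ones, whose sum has the same lower limit in both libraries. The ratio of Malat1-/- to wild type was 1.49 (1.37 to 1.63) for Mafa in high and 1.81 (1.76 to 1.85) in other barcodes. Nkx6-1 (0.78 and 1.03), Pdx1 (0.68 and 1.30) and G6pc2 (0.78 and 1.03) were lower in Malat1-/- high barcodes than in wild-type ones, while in other barcodes they were not; whether these ratios differ was not tested. Only 29 barcodes stand behind the wild-type levels of high barcodes, and 1 of them held 24.5% of their Pdx1 UMIs. Without it the wild-type ratio of high to other barcodes for Pdx1 went from 2.62 to 2.01, so the value of 0.68 leans on that barcode. High barcodes were also unlike slices of the 2 libraries, 3.23% of beta barcodes in wild type and 21% in Malat1-/-.

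Across genes with at least 50 CPM in a library and 50 UMIs over both, 22 of 1724 (1.28%) were higher and 33 (1.91%) lower in Malat1-/- high barcodes with an interval beyond 1.5-fold. In other barcodes these were 21 of 1689 (1.24%) and 30 (1.78%). Of the 22 higher genes 10, and of the 33 lower genes 22, were also counted in other barcodes. Among the genes named below, Pyy, Sst and Enpp2 reached 50 CPM in high barcodes only in Malat1-/-. Malat1, Hspa1a, Spp1, Hspa1b, Pdyn and Hspb1 reached it only in wild type. These genes could pass the minimum only by differing in the direction counted. The highest ratios in high barcodes were those of Pyy (25.9, 15.2 to 48.8) and Sst (17, 9.24 to 35.6), hormones of other islet cells, from 13 and 10 UMIs in wild type. In Malat1-/- 1 barcode held 27.7% of the Pyy and 45.3% of the Sst UMIs of high barcodes, and the choice of beta barcodes limits Sst. In other barcodes the ratios were 3.37 for Pyy and 22.1 for Sst. Next came Enpp2, which makes lysophosphatidic acid, at 17.4 CPM in the wild-type library and 70.5 CPM in Malat1-/- (4.06, 2.87 to 5.92), and Tmsb15b2 (3.40, 2.85 to 4.10). Nfkbia, an inhibitor of NF-kB, and Cebpb, a stress-induced factor, had ratios of 2.53 (2.16 to 2.97) and 2.45 (2.06 to 2.94). The same ratios in other barcodes were 2.93 for Enpp2, 3.61 for Tmsb15b2, 2.15 for Nfkbia and 1.53 for Cebpb. These genes were thus higher in Malat1-/- in both sets of barcodes. A single barcode held 31.3% of the Nfkbia UMIs in wild-type high barcodes.

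The lowest levels relative to wild type, after Malat1 itself, were those of Hspa1a and Spp1. Hspa1a was 41.5-fold (33.0 to 52.6) lower in high barcodes and 7.58-fold (6.96 to 8.26) lower in other barcodes. Spp1, a secreted glycoprotein also found in duct cells, was 27.4-fold (24.8 to 30.2) and 6.10-fold (5.95 to 6.26) lower. Hspa1b, Pdyn, which encodes opioid peptides, and Hspb1 were 19.0-fold, 5.43-fold and 5.42-fold lower in high barcodes. In other barcodes these 3 genes were 8.17-fold, 3.02-fold and 1.66-fold lower. Both sides of the values in high barcodes rest on few barcodes. In wild-type high barcodes 1 barcode held 65.7% of the UMIs of Hspa1b, 49.6% of Pdyn and 32.2% of Spp1, and in Malat1-/- ones 85.7% of Hspa1b, 78.3% of Hspa1a, 44.5% of Hspb1 and 21.6% of Spp1. With 1 library for each genotype these are differences between 2 libraries.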

How the data were processed

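The deposited matrices of the 2 libraries treated with TCDD hold raw UMI counts for 32285 genes and 6794880 barcodes without a barcode filter. Per the file headers they were made with Cell Ranger 4, while the submitters' processing notes name Cell Ranger 2.1.0 and mm10; which version made them was not settled. The gene and barcode files hold names only. Matrices of the DMSO samples were not analysed here.

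Barcodes were chosen as the report states; the members and the gene lists were chosen with earlier results of these data known. UMIs were summed over 4 sets (high and other barcodes of each library) and scaled with TMM factors (edgeR 4.0.16, R 4.3.3); everything else used Python 3.11.15, numpy 2.4.6, scipy 1.17.1, pandas 2.3.3 and matplotlib 3.10.9. For log2 ratios 0.5 UMIs were added. No doublets were called. Ratios have exact conditional and levels exact Poisson intervals. No test was made, since each group has 1 library.

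Of 32285 identifiers 32158 were found in GENCODE M21, which gave coordinates; where symbols repeat, the lowest identifier kept the symbol, and Tmem27 was matched as Cltrn. There were 25 pathway lists and 11 lists of cell type markers. Named genes are the choosing genes and Malat1, the 12 highest and 12 lowest in both libraries by the smaller ratio, list members counted in both libraries or otherwise up to 4 with the highest levels, up to 6 in opposite directions, and 6 highest and 6 lowest between genotypes. Others were chosen after their values were seen: Cyp1a1, Ppy, Chga, Pcsk2, some beta cell genes that were not counted (Ins1, Ins2, Iapp, Insm1, Pax6, Nkx2-2, Neurod1, Abcc8, Kcnj11) and those under other observations.

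In simulated data with counting error only, the size rule counted 0% of 1.1-fold, 70.8% of 1.5-fold and 100% of 2-fold and 3-fold changes, and 0 of 4033 unchanged genes. In all, 21 alternatives were tried, 19 of them planned. One listed marker gene is not reported here.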

Additional observations from a re-analysis of the deposited data

Results flagged for a closer look

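These 6 genes were counted in opposite directions in the 2 libraries, above the other barcodes in wild type and below them in Malat1-/-. The log2 ratio of high to other barcodes was 1.67 in wild type and -0.77 in Malat1-/- for Hspa1a, and 0.59 and -1.12 for Hspb1, both heat shock genes. It was 0.74 and -1.10 for the crystallin Crybb3, 0.54 and -1.04 for the receptor Tnfrsf12a, 0.53 and -1.64 for the secreted glycoprotein Spp1, and 0.54 and -0.46 for the ER chaperone Hspa5. The difference between the libraries was not tested. A single barcode held between 11.9% (Hspa5) and 48.4% (Hspa1a) of the wild-type UMIs of these genes in high barcodes. Without that barcode the wild-type ratio was 1.67 (1.45 to 1.93) for Hspa1a, 1.36 (1.29 to 1.44) for Hspa5, 1.17 (0.983 to 1.39) for Hspb1, 1.13 (interval from 1.02) for Crybb3, 1.05 (0.769 to 1.41) for Tnfrsf12a and 1.02 (0.961 to 1.09) for Spp1. In Malat1-/- high barcodes the largest share of 1 barcode was 78.3% for Hspa1a, whose ratio was 0.127 (0.0772 to 0.198) without it, and 44.5% for Hspb1, with a ratio of 0.256 (0.219 to 0.298) without it.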

How the results depend on the processing

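No paired analysis was possible because each genotype has 1 library and the labels give no replicate numbers. The wild-type library gave 18 high barcodes with the top 10% pooled, 50 with the top 20% and 135 with the top 15% taken within each library. Genes higher in both libraries numbered 33 when barcodes were chosen on 1 set of UMIs and measured on the other, 100 when hormone, mitochondrial and Malat1 UMIs were left out of the CPM, 33 with a minimum of 50 CPM, 97 with no CPM minimum and 10 with a ratio of at least 1.5. Genes lower in both numbered 66 with Slc2a2 left out of the score, 50 with a minimum of 50 CPM, 199 with none and 26 with a ratio of at least 1.5. The wild-type median of the beta maturity list (0.40) was 0.27 after thinning before scoring, 0.25 with Slc2a2 left out, 0.57 with total-count scaling and 0.25 without each gene's largest barcode. That last alternative was chosen after seeing the data and lowers ratios by its construction; it counted 41 genes higher and 143 lower (22.3% higher), and 41 of the 61 and 102 of the 102 genes were still counted. In all 21 alternatives 3 of 61 higher genes (Tmsb15b2, Mafa, Sytl4) and 5 of 102 lower genes (Pyy, Gsdma, Nupr1, Srxn1, Nfkbiz) were counted. For Pyy, 50.7% of Malat1-/- high barcodes still exceeded the median of the other barcodes. All 108 alternative values of the choosing genes left out of the choice kept their direction.

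Of the alternative values of named genes, 1110 kept direction and call, 132 kept direction only and 18 reversed. In wild type the log2 ratio of Spp1 was -2.73 (top 10%), -0.097 (top 20%), -0.67 (within each library), -0.0042 (UMIs divided), -1.68 (barcodes highest in other cell type markers left out), -1.95 (Slc2a2 left out) and -0.28 (Ucn3 left out). Crybb3 was -0.58 (UMIs divided) and -0.56 (Ucn3 left out) in wild type, and Hspa1a -3.67 (Ppp1r1a left out). In Malat1-/- Hspa1a was 0.35 (UMIs divided), 0.089 (within groups of depth), 1.40 (minimum of 5000 UMIs) and 0.23 (Ucn3 left out). Ctrb1 was 0.12 in Malat1-/- without the 5% of barcodes with most UMIs, as was Try4 at 0.79, and 0.041 in wild type with Slc2a2 left out; Cela1 was 0.045 in Malat1-/- without the barcodes highest in other cell type markers. The wild-type median of the hypoxia list was 0.16 with the top 10%. The causes were not tested. Wild-type values rest on 29 high barcodes.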

Other observations

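Some genes outside the lists, chosen after their values were seen, were counted in both libraries. Dbp, a clock-controlled transcription factor, stood at 35.3 and 25.6 CPM in the wild-type library and at 23.7 and 16.9 CPM in Malat1-/- (ratios 1.38, 1.06 to 1.76, and 1.40, with both intervals above 1), for high and other barcodes. Nr1d1, a nuclear receptor that represses clock genes, stood at 53.2 and 33.4 CPM and at 45.3 and 34.1 CPM (1.59, 1.29 to 1.94, and 1.33, 1.23 to 1.44). A single barcode held 25.4% of the wild-type Dbp UMIs in high barcodes, and without it the ratio was 1.04 (0.768 to 1.38).

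A further 6 single genes were higher, of no fixed list. Cox6a2, a subunit of cytochrome c oxidase, had ratios of 2.49 (1.95 to 3.14) and 1.43 (1.33 to 1.54), Gpd2, of the glycerol phosphate shuttle, 1.37 (1.08 to 1.72; 0.913 to 1.53 without the largest single barcode) and 1.26 (1.17 to 1.37), and Maob, a monoamine oxidase, 1.68 (1.41 to 1.99) and 1.42 (1.34 to 1.5). Gjd2, the gap junction protein that couples beta cells, had 1.63 (1.33 to 1.98) and 1.30 (1.22 to 1.38). Cited2, a transcriptional coregulator, had 2.84 (2.44 to 3.28) and 1.33 (1.23 to 1.44). Prkaa1, a catalytic subunit of AMP-activated kinase, had 1.69 (1.27 to 2.19) and 1.28 (1.14 to 1.43). In wild-type high barcodes 1 barcode held 31.2% of the UMIs of Cox6a2, and 1 held 25% of those of Cited2. Without the largest barcode of each gene the wild-type ratios were 1.77 (1.32 to 2.33) for Cox6a2 and 2.16 (1.82 to 2.55) for Cited2.

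A further 4 single genes were lower, also of no fixed list. Nupr1, a stress-induced nuclear protein, stood at 288 and 655 CPM in the wild-type library and at 381 and 681 CPM in Malat1-/-, 2.27-fold (2.09 to 2.48) and 1.79-fold (1.74 to 1.83) lower; a single barcode held 36.6% of the wild-type UMIs in high barcodes, and without it the wild-type ratio was 0.289. Gstp1, a glutathione transferase, was 1.78-fold (1.30 to 2.48) and 1.78-fold (1.59 to 2.00) lower, Gpx2, a glutathione peroxidase, 1.92-fold (1.5 to 2.49) and 1.42-fold (1.33 to 1.51) lower, and Gsr, glutathione reductase, 1.38-fold (1.07 to 1.82) and 1.29-fold (1.19 to 1.41) lower.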
